A study of Mus musculus with 8 samples.

Results

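The MHC class II presentation genes described here are *H2-Aa*, *H2-Ab1*, *H2-Eb1*, *H2-DMa*, *Cd74* and *Ciita*, 6 of the 18193 genes named on the arrays. They were taken by gene symbol from the array annotation, and all 6 were measured. No filter on low values was applied. A gene read by several probe sets (groups of short probes on the array) is represented by the one with the highest mean over all arrays, called its main probe set.

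MHC class II molecules display peptides from endocytosed proteins to CD4+ T cells, and dendritic cells, B cells and activated macrophages are their usual carriers. An alpha and a beta chain pair in the endoplasmic reticulum with the invariant chain, encoded by *Cd74*, which fills the groove and guides the complex to endosomes. There proteases trim the invariant chain down to a fragment that H2-DM exchanges for peptide, while H2-O restrains H2-DM. *Ciita* encodes the coactivator that turns these genes on together, bound to a factor complex on their promoters. Mouse T cells are known for little or no class II of their own, unlike activated human T cells.

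The 8 Affymetrix whole-genome mouse arrays read RNA of CD3+CD8+CD44+CD62L- T cells, sorted from subcutaneous MC38 tumors (a colon carcinoma line) or from LN of female C57BL/6 mice that were 6 to 8 weeks old when the tumor cells were injected. The 4 groups of 2 arrays were tumor with IR, tumor without IR, LN with IR and LN without IR, where IR was 5 Gy to the whole body 5 h before the organs were taken, and every group came from tumor-bearing mice. Each array holds cells pooled from 4 mice, and 2 experiments were performed. Tumors were digested enzymatically, and LN, pooled over draining and other sites, were broken up mechanically before the cells were sorted. The study's methods describe an enrichment of CD8+ cells before this sort for tumors.

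All values below are log2 intensities, on which a difference of 1 is a doubling. In bulk RNA, fewer cells of a type and less RNA per cell cannot be told apart. A gene is said to have risen or fallen where limma's adjusted p was below 0.1 and the group means were at least 1 apart. The lower quartile of an array lay between 5.38 and 5.59 and the upper quartile between 8.40 and 8.62. The 2 arrays of a group correlated at 0.992 (tumor with IR), 0.993 (tumor without IR), 0.966 (LN with IR) and 0.982 (LN without IR) over all genes, and their differences had an SD of 0.271, 0.271, 0.565 and 0.420 in the same order. *Cd3e*, part of CD3, was 12.14 to 12.63 and *Cd8a*, the alpha chain of CD8, was 12.09 to 12.67 over the 8 arrays, so transcripts of the sorted phenotype were present on every array.

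*H2-Aa*, *H2-Eb1* and several further class II chains share a promoter layout that can be read in their sequence. Class II promoters carry an X box, bound by the RFX complex, and shortly downstream a Y box, an inverted CCAAT bound by NF-Y, on which CIITA assembles. RefSeq promoter windows (GRCm38.p6, 300 bases each, 250 of them before the gene start) were at hand for *H2-Aa*, *H2-Eb1* and *H2-DMa*, and for 5 further class II chains. The stretches below are shown because they belong to members with such a pair of letters and to the H2-O chains, each of which fell in a comparison of tumor with LN. Each is printed from 5′ to 3′ on the strand of the gene, and the capitals mark the letters GNAAC (taken for the core of the X box) and TGATTGG (for the Y box).
H2-Aa, chr17:34287847-34287924, minus strand: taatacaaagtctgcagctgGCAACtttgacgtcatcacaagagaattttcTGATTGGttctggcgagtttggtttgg
H2-Eb1, chr17:34305756-34305832, plus strand: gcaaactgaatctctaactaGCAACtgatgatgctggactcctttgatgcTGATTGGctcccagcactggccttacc
H2-Oa, chr17:34092283-34092360, plus strand: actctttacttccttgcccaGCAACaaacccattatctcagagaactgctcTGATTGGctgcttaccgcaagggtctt
H2-Ob, chr17:34238798-34238872, plus strand: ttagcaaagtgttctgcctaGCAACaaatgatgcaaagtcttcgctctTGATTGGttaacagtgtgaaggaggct

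The 2 blocks lie 26 bases apart in *H2-Aa*, 25 in *H2-Eb1*, 26 in *H2-Oa* and 23 in *H2-Ob*, and the Y letters begin 50, 61, 45 and 59 bases before the gene start in the same order. Searched on both strands, with GNAAC 10 to 30 bases before TGATTGG on the same strand, the pair was found in 6 of 9 class II windows (66.7%) and in 191 of all 32851 promoter windows (0.581%). TGATTGG alone was found in 7 of the 9 (77.8%) and in 2568 of all windows (7.817%). Both windows of *H2-DMa* hold neither the pair nor TGATTGG, which says only that these letters are not in those windows. The letters were chosen after the sequences had been read, so the shares describe the search and test nothing. Among the genes with this layout, the mean of *H2-Eb1* in tumor exceeded that in LN, with and without IR, by differences that did not pass. *H2-Aa* differed by 0.54 without IR and -0.04 with IR and did not pass either. The means of *H2-Eb2*, *H2-Oa* and *H2-Ob* were lower in tumor in both comparisons. *H2-Oa* fell in tumor T cells without IR and *H2-Ob* in those with IR. *H2-DMb1*, which also has the layout, has no probe set of its own. The part of the layout in these levels was not tested.

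*H2-Aa* encodes the alpha chain of I-A, the class II molecule of C57BL/6 mice. It measured 11.04 and 11.91 on the tumor arrays with IR and 11.63 and 12.32 on those without IR, against 11.66 and 11.36 in LN with IR and 10.93 and 11.94 in LN without IR. The group means were 11.48 ± 0.61 (tumor with IR), 11.98 ± 0.49 (tumor without IR), 11.51 ± 0.21 (LN with IR) and 11.44 ± 0.71 (LN without IR; SD, n = 2 each, as for every mean ± SD here). Tumor T cells without IR held the highest mean, and the other 3 means were close to each other. Each group's range overlapped every other group's.

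*H2-Ab1* encodes the beta chain of I-A and read 10.62 and 11.56 in tumor T cells with IR and 11.02 and 12.19 in tumor T cells without IR. The LN arrays gave 10.33 and 10.27 with IR and 10.05 and 11.24 without IR. Its means ran 11.60 ± 0.82 (tumor without IR), 11.09 ± 0.66 (tumor with IR), 10.64 ± 0.84 (LN without IR) and 10.30 ± 0.05 (LN with IR), and neighbours in that order overlapped. Both irradiated tumor arrays lay above both irradiated LN arrays, a separation this gene shared with *Ciita* alone among the 6.

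*H2-Eb1* encodes the beta chain of I-E. C57BL/6 mice lack a working I-E alpha chain, and RefSeq lists *H2-Ea* as a transcribed pseudogene. *H2-Eb1* lay above the upper quartile of every array, at 10.63 and 11.48 in tumor T cells with IR, 11.11 and 12.37 in tumor T cells without IR, 10.96 and 10.26 in LN with IR and 10.26 and 11.14 in LN without IR. The order of the means was that of *H2-Ab1*, with 11.74 ± 0.89 (tumor without IR) first, then 11.05 ± 0.60 (tumor with IR), 10.70 ± 0.62 (LN without IR) and 10.61 ± 0.49 (LN with IR). No neighbours in it differed beyond their spread. *H2-Ea* itself gave 6.20 to 6.45 over the 8 arrays, with group means from 6.24 to 6.37.

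*H2-DMa* encodes the alpha chain of H2-DM, the peptide exchanger. Its values were 9.48 and 9.90 in tumor T cells with IR, 9.89 and 11.15 in tumor T cells without IR, 9.79 and 9.74 in LN with IR and 9.94 and 10.32 in LN without IR. A single array, replicate 2 of tumor without IR, stood apart at 11.15, and the other 7 lay between 9.48 and 10.32. The means ran 10.52 ± 0.89 (tumor without IR), 10.13 ± 0.27 (LN without IR), 9.77 ± 0.03 (LN with IR) and 9.69 ± 0.30 (tumor with IR). Both LN arrays with IR lay below both without it.

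*Cd74*, the invariant chain, measured 10.22 and 11.32 in tumor T cells with IR and 11.37 and 12.54 in tumor T cells without IR, so the irradiated arrays both lay below the unirradiated ones. The LN arrays read 11.11 and 10.28 with IR and 10.68 and 11.38 without IR, with overlap. Its means ran 11.95 ± 0.82 (tumor without IR), 11.03 ± 0.49 (LN without IR), 10.77 ± 0.77 (tumor with IR) and 10.69 ± 0.58 (LN with IR).

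*Ciita*, the coactivator, gave 7.11 and 7.26 in tumor T cells with IR and 7.22 and 8.36 in tumor T cells without IR. In LN it read 7.06 and 6.29 with IR, below both arrays without IR at 7.41 and 7.61. The means ran 7.79 ± 0.81 (tumor without IR), 7.51 ± 0.15 (LN without IR), 7.18 ± 0.11 (tumor with IR) and 6.67 ± 0.55 (LN with IR). In this order LN without IR lay above tumor with IR on both arrays of each, and tumor with IR above LN with IR, while the 2 highest groups overlapped. All its values lay between the lower and the upper quartile of the arrays.

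**Figure D1:**
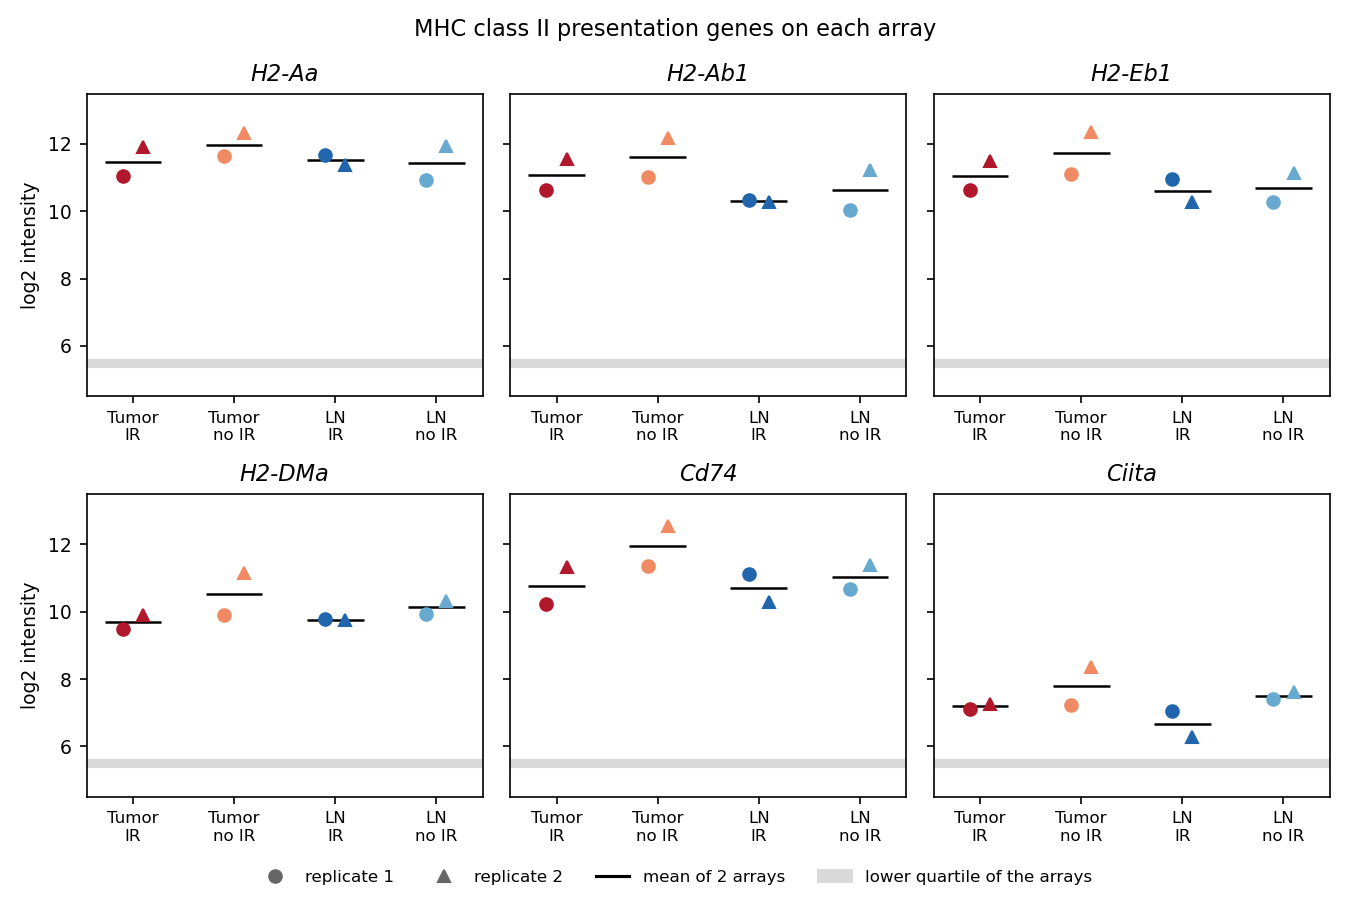
Log2 intensity of the main probe set of each of the 6 genes (vertical axis) in the 4 groups (horizontal axis); points are the 2 arrays of a group, the black line is their mean and the grey band spans the lower quartiles of the arrays. Tumor T cells without IR have the highest mean in each panel, and in 3 of the 4 groups replicate 2 is above replicate 1 for all 6 genes.

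Without IR, the tumor mean exceeded the LN mean for all 6 genes and none passed the test. Of all 18193 genes, 5.54% passed in this comparison. The log2 fold changes were 0.54 for *H2-Aa*, 0.96 for *H2-Ab1*, 1.04 for *H2-Eb1*, 0.39 for *H2-DMa*, 0.92 for *Cd74* and 0.28 for *Ciita*, with a median of 0.73 beside -0.09 over all genes. The 95% intervals all spanned 0 and were wide, from -0.18 to 2.25 for *H2-Eb1* (adjusted p = 0.369, limma), the lowest of the 6, and from -0.65 to 1.21 for *Ciita* (adjusted p = 0.769, limma). For each gene the tumor and LN arrays overlapped, whereas the groups of 56.5% of all genes did not.

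With IR, the tumor and LN levels lay closer together for 5 of the 6 genes, *Ciita* being the exception. The log2 fold changes of tumor over LN were -0.04 for *H2-Aa*, 0.79 for *H2-Ab1*, 0.44 for *H2-Eb1*, -0.08 for *H2-DMa*, 0.08 for *Cd74* and 0.51 for *Ciita*. None passed, against 6.80% of all genes, and adjusted p was 0.421 to 0.973. The tumor arrays lay above the LN arrays for *H2-Ab1* and *Ciita* and overlapped them for the other 4, and 50.1% of all genes had groups that did not overlap.

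In LN T cells, none of the 6 genes passed for IR over no IR, and *Ciita* had the largest difference. The differences of IR over no IR were 0.08 for *H2-Aa*, -0.34 for *H2-Ab1*, -0.09 for *H2-Eb1*, -0.37 for *H2-DMa* and -0.34 for *Cd74*, beside -0.84 for *Ciita* (95% interval -1.77 to 0.09, unadjusted p = 0.0706, adjusted p = 0.381, limma). Of all genes 1.05% passed. *Ciita* passed when replicate 1 of LN with IR was left out (log2 fold change -1.23, adjusted p = 0.0954, limma). *Ciita* and *H2-DMa* were the 2 genes whose irradiated LN arrays both lay below the unirradiated ones, while the groups of 41.3% of all genes did not overlap.

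In tumor T cells all 6 genes averaged lower with IR than without. The differences were -0.50 for *H2-Aa*, -0.51 for *H2-Ab1*, -0.68 for *H2-Eb1*, -0.83 for *H2-DMa*, -1.18 for *Cd74* and -0.61 for *Ciita*, with a median of -0.65 where that of all genes was 0.09. *Cd74* had the largest of them, with a 95% interval of -2.42 to 0.06 and an adjusted p of 0.342 (limma). None passed the test, and neither did nearly all genes, since 0.0989% of them passed. *Cd74* was also the one gene of the 6 whose groups did not overlap, a separation that 67.4% of all genes had.

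The effect of IR in tumor minus that in LN was -0.58 for *H2-Aa*, -0.17 for *H2-Ab1*, -0.60 for *H2-Eb1*, -0.47 for *H2-DMa*, -0.85 for *Cd74* and 0.23 for *Ciita*. Adjusted p was 0.821 to 0.964, and the interval of *Cd74* ran from -2.60 to 0.91. Over all genes limma called 0 (0%) in this comparison, with 1024 at an unadjusted p under 0.05, and the robust fit called 18. None of the 6 genes reached an unadjusted p under 0.05 in any of the 5 comparisons, and the robust fit called none of them. The comparisons share groups, so their values are set side by side and not correlated.

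**Figure D2:**
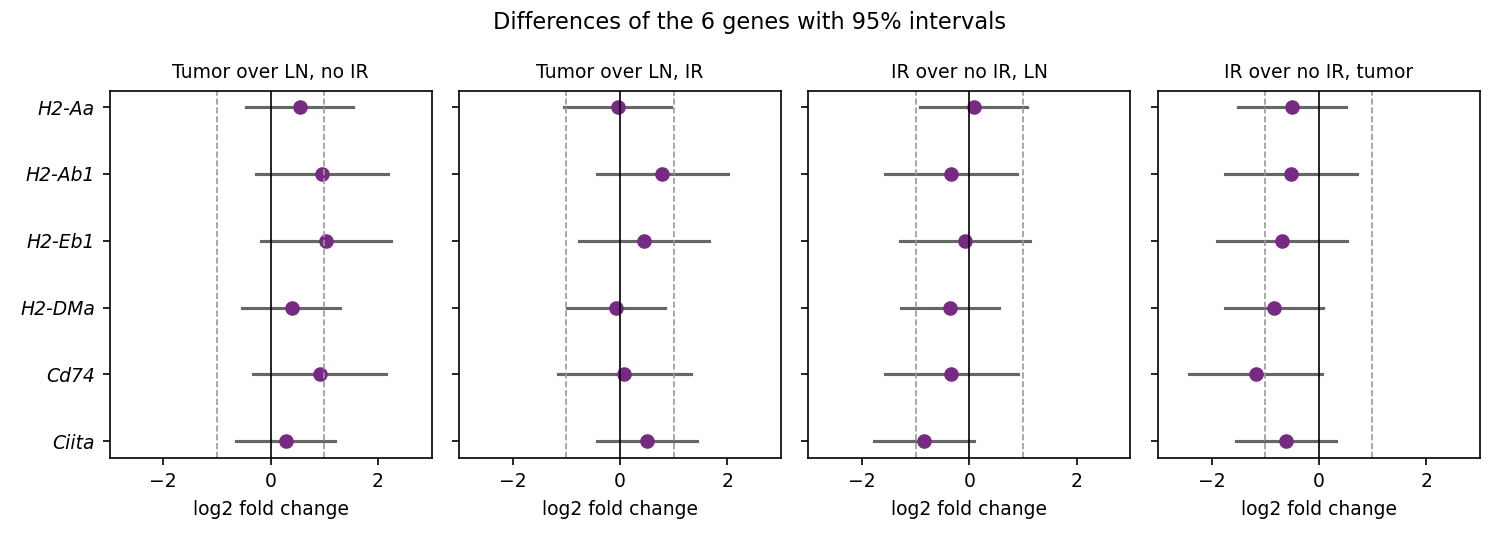
Log2 fold change (horizontal axis) of the 6 genes (rows) in the 4 pairwise comparisons, with points at the limma estimate and bars for the 95% interval. The dashed lines mark a log2 fold change of 1 in size. Every interval crosses 0; the points lie right of 0 in all 6 rows for tumor over LN without IR and left of it in all 6 for IR over no IR in tumor.

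The 2 arrays of a group differed by amounts of the same order as the groups did, and in each group all 6 genes ran the same way. Replicate 2 was above replicate 1 for 6 of 6 genes in tumor with IR (median 0.86, 0.15 to 1.09), in tumor without IR (median 1.16, 0.69 to 1.26) and in LN without IR (median 0.79, 0.21 to 1.19). In LN with IR it was below replicate 1 for 6 of 6 (median -0.50, -0.83 to -0.05). The median difference over all genes was between -0.06 and -0.02 in the 4 groups. Within single genes, *Cd74* differed by 1.09, 1.17, -0.83 and 0.69 between the arrays of tumor with IR, tumor without IR, LN with IR and LN without IR.

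Over the 8 arrays the 6 genes varied together. Pearson's r between pairs ran from 0.585 (*H2-Aa* and *Ciita*) to 0.947 (*H2-Ab1* and *H2-Eb1*), and *Cd74* was at 0.848 to 0.935 with the 3 classical chains. These are descriptions over 8 arrays that were normalised together. The 3 lowest coefficients all involve *Ciita* with a chain of I-A or *H2-DMa* with *H2-Ab1*, at 0.585, 0.732 and 0.757.

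**Figure D3:**
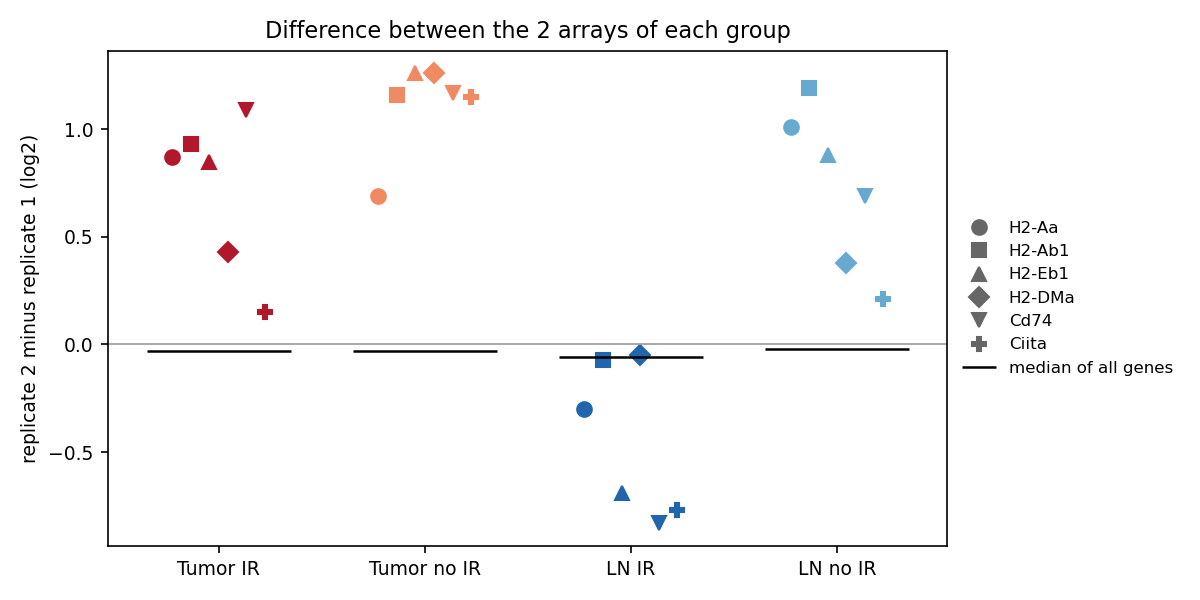
Replicate 2 minus replicate 1 on the log2 scale (vertical axis) for the 6 genes in each group (horizontal axis), with black lines for the median of all genes. The points lie above 0 in tumor with IR, tumor without IR and LN without IR, and below 0 in LN with IR.

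The further probe sets of these genes followed the main one to different degrees. *H2-Aa* is read by 4 probe sets, of which 2 followed the main one at r of 0.943 and 0.893 over the 8 arrays, and the dimmest lay between 4.98 and 5.90, around the lower quartile (r = 0.689). The second probe set of *H2-Aa*, also bright (mean 11.21), gave 0.52 for tumor over LN with IR, against -0.04 on the main set, and -0.10 for IR over no IR in LN, against 0.08. The other 2 probe sets of *H2-Ab1* followed at 0.980 and 0.951. On both, the irradiated tumor and LN arrays overlapped (differences of 0.58 and 0.36), unlike on the main set. For *Ciita* 1 further set followed at 0.886 and the dimmest did not (r = -0.660, 6.15 to 6.71), and the second set of *H2-DMa* did not either (r = 0.080, 6.51 to 7.03). No probe set of the 6 genes passed in any comparison. The one of *Ciita* that followed the main set gave -0.66 for IR over no IR in LN (adjusted p = 0.416, limma) and 0.73 for tumor over LN with IR (adjusted p = 0.246, limma).

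The remaining class II chains did not move as a block with the 6 genes. Of 5 measured under their own symbol (*H2-Ea*, *H2-Eb2*, *H2-DMb2*, *H2-Oa* and *H2-Ob*, out of 7 listed), 1 fell in tumor against LN T cells without IR and 1 with IR, and none passed for IR in either tissue. *H2-Oa*, the alpha chain of H2-O, was 8.26 and 8.05 in tumor with IR and 7.76 and 7.75 in tumor without IR, against 9.19 and 9.01 in LN with IR and 9.03 and 9.41 in LN without IR. All 4 tumor arrays lay below all 4 LN arrays. *H2-Oa* fell by 1.47 in tumor T cells without IR (95% interval -1.89 to -1.04, adjusted p = 0.00506, limma), a call kept in all 19 alternatives in which it was computed. With IR its difference was -0.94, with an adjusted p of 0.0246 (limma) but a size under the limit, which it reached under cyclic loess and without replicate 2 of LN with IR (-1.03).

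*H2-Ob*, the beta chain of H2-O, was 3.99 and 4.93 in tumor with IR, 4.71 and 5.92 in tumor without IR, 7.34 and 9.04 in LN with IR and 6.82 and 8.99 in LN without IR. On 3 of the 4 tumor arrays it was under the lower quartile, so its fold change has no exact size. *H2-Ob* fell in tumor T cells with IR (log2 fold change -3.74, adjusted p = 0.042, limma), and this call was lost without replicate 1 of tumor with IR (-3.27, adjusted p = 0.224), without its replicate 2 (-4.21, adjusted p = 0.161) or without replicate 2 of LN with IR (-2.89, adjusted p = 0.119). Without IR the difference of *H2-Ob* was -2.59 (adjusted p = 0.163, limma), and it passed in the robust fit of the study's methods (adjusted p = 0.0973), with array weights (adjusted p = 0.0703), without either array of LN with IR (adjusted p = 0.0889) and without replicate 1 of LN without IR (-3.67, adjusted p = 0.0772). A probe set shared with *Gm20506* read 6.89 and 6.91, 6.57 and 6.40, 7.72 and 8.44, and 6.90 and 8.63 in the same order of groups, with tumor below LN in both comparisons.

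The beta chain of H2-DM gave different values on different probe sets. The brightest of 3 sets naming *H2-DMb2* alone measured 8.52 and 9.81 in tumor with IR, 9.56 and 10.88 in tumor without IR, 10.60 and 10.54 in LN with IR and 10.32 and 11.27 in LN without IR. The brighter of 2 sets naming both *H2-DMb1* and *H2-DMb2* measured 9.11 and 10.06, 10.09 and 11.51, 8.71 and 8.80, and 9.07 and 9.68 in that order. Tumor over LN without IR was -0.57 on the first and 1.43 on the second (adjusted p = 0.667 and 0.194, limma). The dimmer sets gave -0.29 and -0.59 for *H2-DMb2* alone and 1.95 (adjusted p = 0.111) for both names, so the 2 nearly identical beta chains cannot be assigned a common direction from these probes. *H2-Eb2*, a further beta chain, was 6.82 and 7.07 in tumor with IR and 6.52 and 6.54 in tumor without IR, below 7.71 and 7.21 in LN with IR and 7.24 and 7.20 in LN without IR. Its difference without IR was -0.69 (adjusted p = 0.108, limma).

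**Figure D4:**
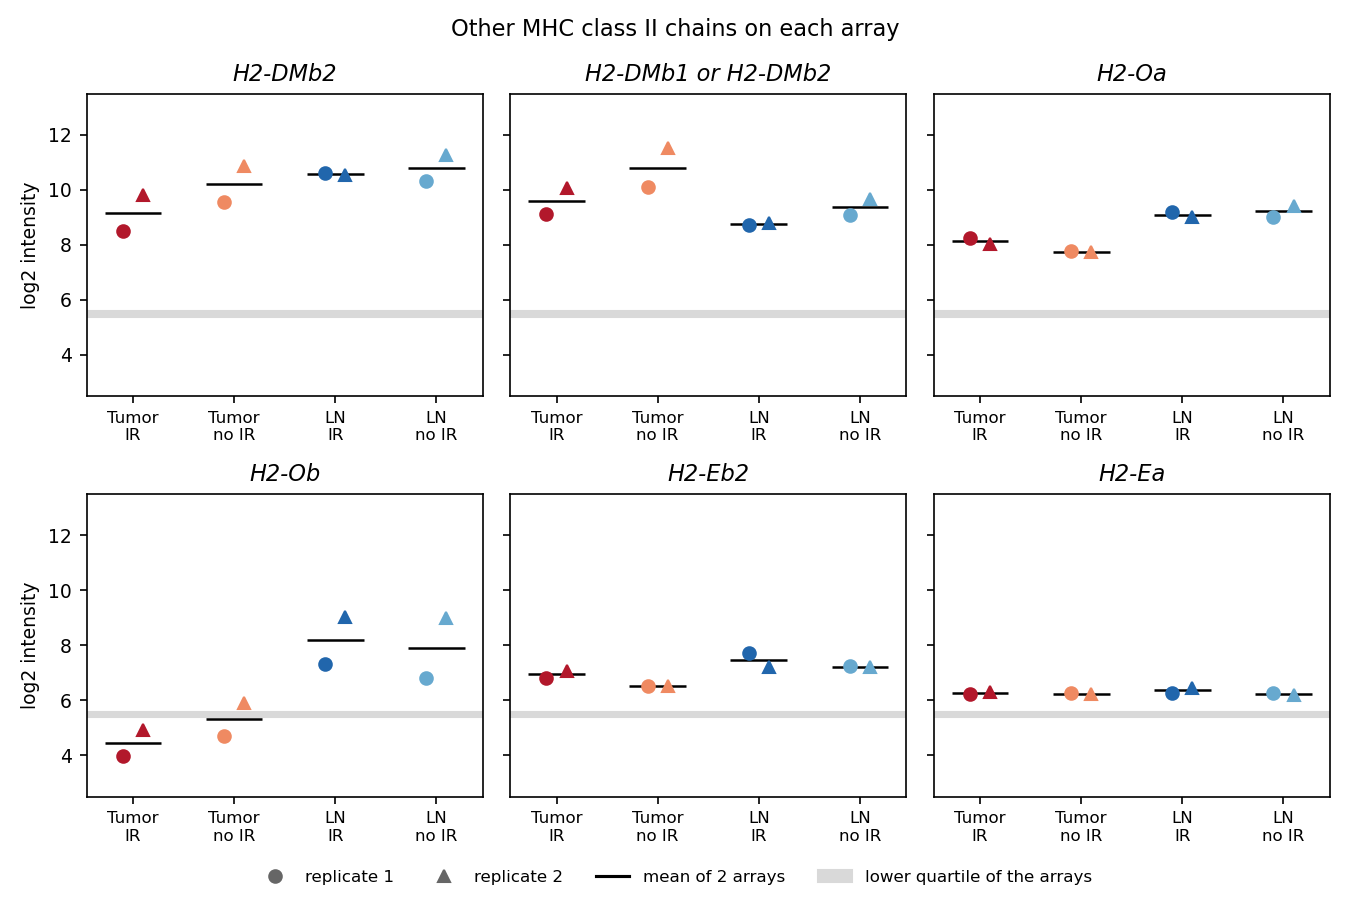
Log2 intensity (vertical axis) of 6 further class II probe sets in the 4 groups (horizontal axis), drawn as points for the 2 arrays and a black line for their mean, with the lower quartiles of the arrays as a grey band. *H2-Oa* and *H2-Ob* are lower on all 4 tumor arrays than on all 4 LN arrays, and *H2-Ea* is flat.

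Several genes of the endosomal step rose in tumor T cells, as did 17 of 21 macrophage and monocyte markers without IR and 16 with IR, whose part in these rises was not tested. Among 16 measured proteases and turnover factors of class II, 5 rose in tumor T cells without IR and 5 with IR, none fell, and all 16 had a positive difference in both comparisons (median 1.06 and 0.75). The count fell to 1 without replicate 2 of tumor without IR and to 1 without replicate 2 of tumor with IR. *Lgmn*, the asparagine endopeptidase that opens the invariant chain, was 8.29 and 9.89 in tumor with IR and 9.51 and 10.22 in tumor without IR, against 6.66 and 6.28 in LN with IR and 6.28 and 6.89 in LN without IR. The rise of *Lgmn* was 3.28 without IR (adjusted p = 0.0137, limma; 2.93 and adjusted p = 0.128 without replicate 2 of tumor without IR) and 2.62 with IR (adjusted p = 0.0277; 1.82 and adjusted p = 0.113 without replicate 2 of tumor with IR). *Marchf8*, a ubiquitin ligase that sends class II and other membrane proteins to lysosomes, was 7.66 and 8.17 in tumor with IR and 7.76 and 8.01 in tumor without IR, against 6.01 and 5.59 in LN with IR and 5.24 and 5.22 in LN without IR. The rise of *Marchf8* was 2.65 without IR and 2.11 with IR (adjusted p = 0.00112 and 0.00293, limma), called in all 18 and 19 alternatives computed. Its LN level without IR was under the lower quartile, so the first of these has no exact size.

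*Ctsl*, a cathepsin that degrades the invariant chain in thymic epithelium, rose by 2.54 without IR and 3.07 with IR (adjusted p = 0.0558 and 0.0249, limma). The rise without IR was lost when replicate 1 of LN without IR was left out (1.61, adjusted p = 0.111) or either array of tumor without IR (2.72 and 2.36) or of tumor with IR (2.54 for each), and the rise with IR when either array of tumor with IR was (3.25 and 2.89). *Cd81*, a tetraspanin of class II membrane domains, was 9.84 and 10.14 in tumor with IR, 10.25 and 10.64 in tumor without IR, 10.14 and 9.08 in LN with IR and 8.36 and 8.05 in LN without IR. Its difference between tissues passed without IR alone (2.24, adjusted p = 0.0127, limma; 2.04 and adjusted p = 0.122 without replicate 2 of tumor without IR), and that between the IR effects in the 2 tissues was -1.86 (adjusted p = 0.758). *Lamp2*, a lysosomal membrane protein, completed the 5 in both comparisons (1.14 and 1.43), and *Cd9*, another tetraspanin, took the place of *Cd81* with IR (1.85), both named after their values were seen. The calls of *Lamp2* were lost without either array of tumor without IR (1.31 and 0.97), replicate 1 of LN without IR (0.89) or, with IR, replicate 2 of tumor with IR (1.16), and that of *Cd9* without either array of tumor with IR (2.01 and 1.69). None of the 16 passed for IR in either tissue. *Ctss*, the cathepsin that finishes the invariant chain in B cells and dendritic cells, differed by 0.49 without IR and 0.29 with IR and did not pass.

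Among 17 measured transcription factors of class II genes, 2 rose in tumor T cells without IR and 1 with IR, and none passed for IR. Of all genes 5.54% and 6.8% passed between the tissues without and with IR, and 1.05% in LN and 0.0989% in tumor for IR. *Rfx5*, *Rfxap* and *Rfxank*, the RFX complex of the X box, were 8.74 to 9.36, 8.05 to 8.91 and 8.33 to 8.88 over the 8 arrays. The genes that rose were *Irf8* and *Spi1*, factors of myeloid cells and B cells. *Irf8* rose by 1.64 without IR and 1.92 with IR (adjusted p = 0.063 and 0.0307, limma) and measured 10.49 and 10.27 in tumor with IR, 10.55 and 10.59 in tumor without IR, 9.01 and 7.91 in LN with IR and 8.52 and 9.35 in LN without IR. The 4 tumor arrays all lay above the 4 LN arrays. The call for *Irf8* without IR was lost without replicate 1 of LN without IR (1.22, adjusted p = 0.217) or any tumor array (1.62 to 1.66), and that with IR without either array of tumor with IR (1.81 and 2.02). *Spi1* rose by 1.25 without IR (adjusted p = 0.0484, limma), a call lost without replicate 2 of tumor without IR (0.86) or either array of LN without IR (1.18 and 1.32), and differed by 0.13 with IR.

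In the interferon gamma axis, whose signal is the usual inducer of *Ciita*, 1 of 12 measured genes rose in tumor T cells in each comparison and none passed for IR. Between the tissues 5.54% of all genes passed without IR and 6.8% with IR. Without IR, 6 of the 12 differences of tumor over LN were above 0 and 6 below (median 0.09). With IR, 3 were above and 9 below (median -0.36). *Ifng*, named after its values were seen, was 12.53 and 12.07 in tumor with IR and 12.47 and 12.41 in tumor without IR. In LN *Ifng* was 10.73 and 8.38 with IR and 11.03 and 8.68 without IR, and it did not pass. *Cxcl9*, an interferon gamma-induced chemokine of myeloid cells, was 8.34 and 9.30 in tumor with IR, 8.76 and 10.30 in tumor without IR, 5.84 and 5.68 in LN with IR and 5.90 and 7.44 in LN without IR. Its rise was 2.86 without IR and 3.06 with IR (adjusted p = 0.0509 and 0.0336, limma). The call without IR was lost without replicate 2 of tumor without IR (2.10, adjusted p = 0.301) or replicate 1 of LN without IR (2.10, adjusted p = 0.176), and that with IR without either array of tumor with IR (3.54 and 2.58).

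Of the receptors of class II, *Lag3*, an inhibitory receptor, rose in tumor T cells by 1.27 without IR and 1.62 with IR (adjusted p = 0.0321 and 0.0123, limma). It measured 9.37 and 9.05 in tumor with IR and 9.50 and 9.41 in tumor without IR, against 7.92 and 7.27 in LN with IR and 8.37 and 8.00 in LN without IR. The call of *Lag3* without IR was lost without either array of tumor without IR (1.23 and 1.31) or replicate 2 of LN without IR (1.09, adjusted p = 0.177). *Cd4*, the coreceptor, was 7.33 and 7.40 in tumor with IR against 8.43 and 8.30 in LN with IR, and fell by 1.00 (adjusted p = 0.0102, limma), at the fold limit, so that leaving out replicate 1 of tumor with IR (-0.97) or of LN with IR (-0.93) ended the call. Without IR *Cd4* was also lower in tumor, at 7.18 and 7.03 against 7.93 and 8.11 in LN, and did not pass.

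Costimulatory ligands, which antigen-presenting cells show beside class II, were the only list with rises after IR in LN, 2 of 10 measured genes. *Tnfsf4* (OX40 ligand) was 9.84 and 9.35 in LN with IR, against 7.30 and 6.18 in LN without IR, and rose by 2.86 (adjusted p = 0.0289, limma; adjusted p = 0.111 without either array of tumor with IR, at the same log2 fold change). *Cd80*, a ligand of CD28, was 9.80 and 8.74 in LN with IR, against 7.65 and 6.89 in LN without IR, and rose by 2.00 (adjusted p = 0.0876, limma). That call of *Cd80* was lost without either array of LN without IR (2.38 and 1.62), of tumor with IR or of tumor without IR (2.00 for each). *Cd80* also rose in tumor against LN T cells without IR, by 1.45 (adjusted p = 0.0813, limma), a call lost without either tumor array of that comparison (1.53 and 1.37), without either array of tumor with IR (1.45 for each) or without replicate 2 of LN without IR (1.07). Fitted on the LN arrays alone, neither *Tnfsf4* nor *Cd80* passed for IR (adjusted p = 0.458 and 0.639, limma). Between tumor T cells with and without IR, *Tnfsf4* differed by 2.09 and *Cd80* by 1.27 and neither passed (adjusted p = 0.216 and 0.289, limma).

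MHC class I presentation, the pathway of all nucleated cells, gave no call in any comparison among 17 measured genes. Its median difference of tumor over LN was 0.00 without IR and -0.07 with IR, and that of IR over no IR was -0.15 in LN and -0.19 in tumor. The mean over the list ran from 11.21 to 11.60 over the 8 arrays, where that over the 6 class II genes ran from 9.70 to 11.49.

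Markers of cells that carry class II were measured beside the 6 genes, although the sort required CD3 and CD8. Of 21 macrophage and monocyte markers, 17 rose in tumor T cells without IR (11 without replicate 2 of that tumor group) and 16 with IR (11 without replicate 2 of that tumor group), where *Ms4a6c* fell, and none passed for IR. That fall was on the main probe set of *Ms4a6c*. Its second set read 8.99 and 10.45 in tumor with IR and 8.37 and 9.34 in LN with IR. *Lyz2*, the lysozyme of myeloid cells, rose by 4.23 and 3.13. The mean over the 21 markers was 9.09 and 10.26 in tumor with IR, 10.33 and 11.01 in tumor without IR, 7.02 and 7.07 in LN with IR and 6.83 and 7.33 in LN without IR. *Csf1r*, the macrophage growth factor receptor, was 9.85 and 11.36, 11.45 and 12.12, 6.46 and 7.73, and 6.48 and 8.20 in that order, and *Adgre1*, a macrophage surface receptor, was 7.89 and 9.36, 9.52 and 10.18, 5.59 and 5.76, and 5.20 and 5.50. The markers differed between the tissues by a median of 3.62 without IR and 2.90 with IR, and the 6 class II genes by a median of 0.73 and 0.26. On at least 1 LN array, 4 of the 21 markers without IR and 2 with IR were under the lower quartile, so their fold changes have no exact size. Within both tumor groups replicate 2 exceeded replicate 1 for 20 of 21 markers with IR and 21 of 21 without, in the direction of the 6 class II genes, and in tumor the markers had a median difference of -1.11 for IR over no IR, with 20 of 21 below 0.

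B cell markers went the other way, with 5 of 15 lower in tumor T cells without IR (3 without replicate 2 of that tumor group, 9 at most) and 5 with IR (1 without replicate 1 of that tumor group), and none higher. *Ighm*, the IgM heavy chain, fell by 1.87 and 1.92 on its main probe set, and *Cd79b*, of the B cell receptor, by 2.17 and 1.5. The 11 probe sets of *Ighm* differed. The third brightest read 5.26 to 5.70 in tumor, 11.32 and 11.72 in LN with IR and 5.78 and 12.36 in LN without IR. The dimmest was 5.52 to 5.84 over the 8 arrays. The mean over the 15 markers was 6.01 and 6.20 in tumor with IR and 6.26 and 6.16 in tumor without IR, against 7.34 and 7.43 in LN with IR and 7.0 and 7.89 in LN without IR. *Ms4a1* (CD20) lay under the lower quartile on the 4 tumor arrays (4.78 to 5.06) and on replicate 1 of LN without IR (5.28), and reached 7.57 and 8.23 in LN with IR and 8.56 on replicate 2 of LN without IR. *Pou2af1*, a B cell coactivator, was 3.77 to 4.99 in tumor and 9.08 to 10.31 in LN. In LN without IR replicate 2 was above replicate 1 for 13 of 15 B cell markers and 12 of 15 dendritic cell markers. The same held for the 6 class II genes, 13 of 17 MHC class I genes and 8477 of all 18193 genes. Over the dendritic cell markers that difference ran from -0.89 to 2.42, with a median of 0.41. *Siglech* of plasmacytoid cells (8.29 and 10.71 on replicates 1 and 2) had the largest.

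Of 15 dendritic cell markers, 1 fell in tumor T cells without IR (5.54% of all genes passed). With IR 1 rose and 1 fell (6.8% of all genes passed). Leaving out 1 array gave 0 (without replicate 1 of tumor without IR) to 4 that fell without IR, and 0 (without replicate 1 of tumor with IR) to 2 that rose and 1 to 4 that fell with IR. The one that fell was *Ccr7* (-1.83 and -2.10), which homing T cells also carry, and the one that rose was *Clec10a* (2.08, adjusted p = 0.0726, limma). *Flt3* was 6.44 and 6.44 in tumor with IR, 6.17 and 6.29 in tumor without IR, 8.44 and 7.01 in LN with IR and 7.31 and 7.73 in LN without IR, and *Zbtb46* was 7.10 to 8.55 over the 8 arrays. In LN with IR the 6 class II genes and 12 of 15 dendritic cell markers were lower on replicate 2. There 10 of 15 B cell markers were higher, but only 1 of 12 T cell identity genes and 3 of 17 MHC class I genes. Of all 18193 genes 7969 were higher, so lower values on that array were not particular to dendritic cell markers. The median difference over T cell identity genes (12 measured) was -0.18 and -0.17 for tumor over LN without and with IR. Of further lists, fibroblast markers had 4 and 5 of 11 higher in tumor without and with IR, epithelial and carcinoma markers 2 and 2 of 9, and neutrophil (8 measured) and endothelial (8 measured) markers none. The part of these cells in the class II levels was not tested.

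**Figure D5:**
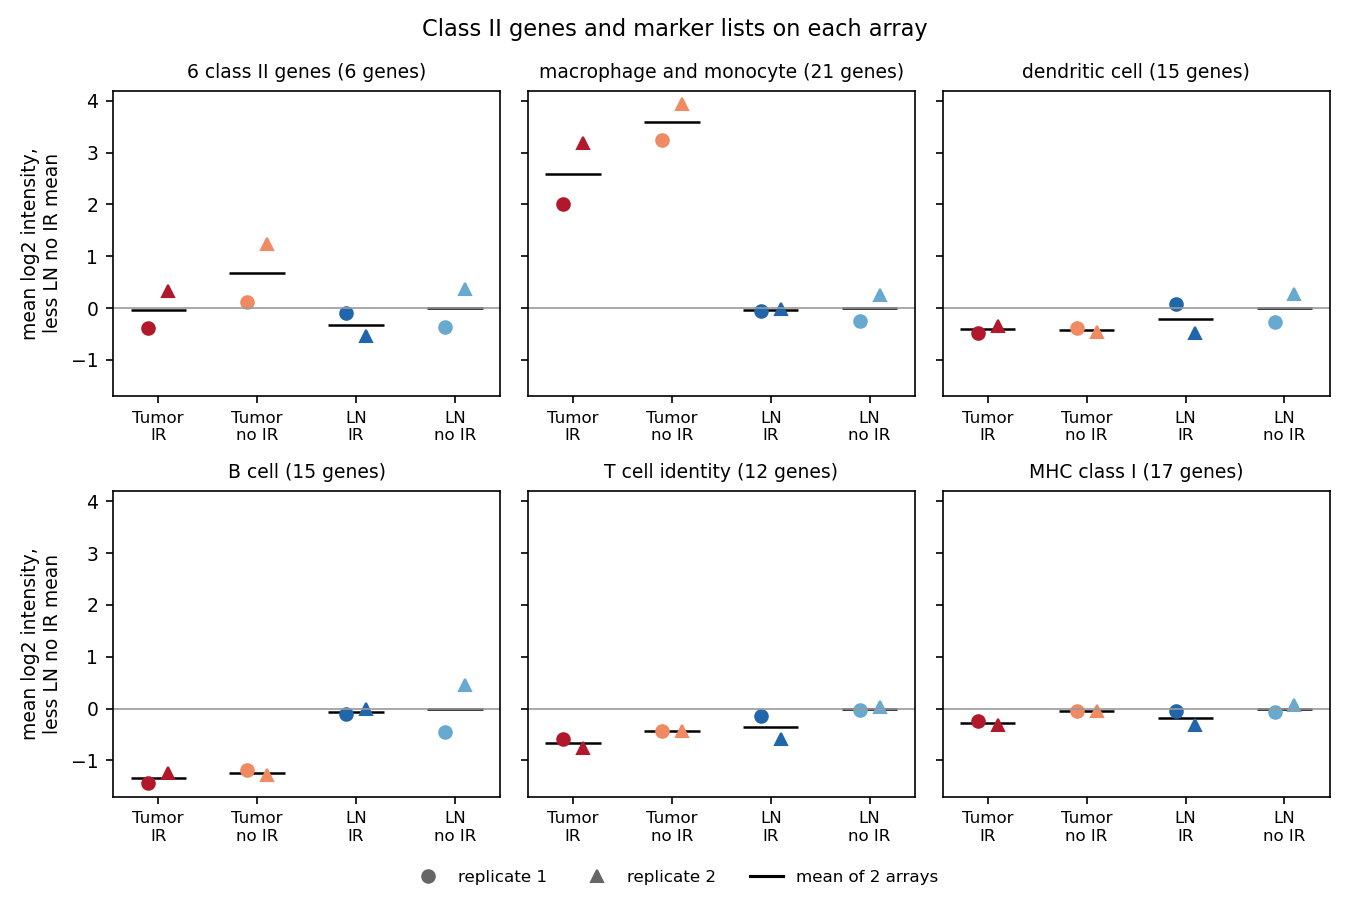
Mean log2 level of 6 gene lists, drawn relative to unirradiated LN, whose mean is set to 0 (vertical axis), in the 4 groups (horizontal axis); points are arrays and black lines group means. Macrophage and monocyte markers stand above 0 on all 4 tumor arrays and B cell markers below it, while the 6 class II genes lie on both sides of it.

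Genes with a pattern like that of the class II genes were sought by Pearson's r, over the 8 arrays, with the mean of *H2-Aa*, *H2-Ab1*, *H2-Eb1* and *Cd74*. That mean was 10.63 and 11.57 in tumor with IR, 11.28 and 12.35 in tumor without IR, 11.02 and 10.54 in LN with IR and 10.48 and 11.42 in LN without IR. The closest was *Marchf1* (r = 0.970), the ubiquitin ligase that removes class II from the surface of B cells and dendritic cells. *Marchf1* measured 7.65 and 8.80 in tumor with IR, 8.41 and 9.55 in tumor without IR, 7.61 and 7.62 in LN with IR and 7.28 and 8.39 in LN without IR. It was followed by *Nlrp10* (0.966, under the lower quartile on every array), *1600012H06Rik* (0.960), *Nfe2l2* (0.960), *Syk* (0.952), *Ctsh* (0.950), *P2rx4* (0.943), *Ncstn* (0.939), *Psap* (0.935) and *Gpr35* (0.934). *Ctsh*, a lysosomal aminopeptidase, read 8.64 and 7.86 in LN with IR and 7.81 and 9.08 in LN without IR. It thus showed the reversal between LN replicates of the class II genes, which its choice by likeness over these arrays made likely. *Ctss* (0.918) and *Ifi30*, the lysosomal thiol reductase of class II processing (0.915), ranked 23 and 25 of 18187 genes. Markers of other cells stood close behind, with *Tyrobp* (0.906) and *Ly86* (0.904) of the macrophage and monocyte list at ranks 33 and 36. *Blnk* (0.884) of the B cell list was at rank 60, the only 1 of its 15 markers above 0.8. These genes were named after their values were seen. The median coefficient was 0.736 over the 16 endosomal genes, 0.703 over the 21 macrophage and monocyte markers, -0.085 over the 15 dendritic cell markers and -0.346 over the 15 B cell markers. *H2-Oa* (-0.526) and *H2-Ob* (-0.172) did not follow. These coefficients come from 8 points that include the spread between replicates and carry no test.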

How the data were processed

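The authors hybridised RNA of sorted T cells to 8 Affymetrix mouse arrays and deposited log2 intensities normalised by RMA, which corrects background, gives the arrays a common distribution and summarises probe sets (version not given in the sources used here). These deposited log2 values were used unchanged. Of 45101 probe sets, the 35877 with a gene symbol were tested, 34945 naming 1 gene and 932 several, and control probe sets were left out. A least-squares fit of the 4 groups was made with limma 3.58.1 (R 4.3.3) and moderated by empirical Bayes, with 3.13 prior and 4 residual degrees of freedom. The Benjamini-Hochberg adjustment ran over these 35877. The thresholds are those of the study's methods, whose robust fit was an alternative here. SAM was not run. The fit was tested on simulated data. The alternatives were array weights, a mean-variance trend, the replicate number as a block, the compared groups alone, scaling to T cell identity genes, cyclic loess, the most variable probe set, leaving out probe sets dimmer than the median, other thresholds and leaving out each array.

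The 6 genes and the gene lists were chosen with earlier results of these data known. Genes named beside the 6 are the class II chains, up to 4 genes per list with the largest fold change among those that passed, the 10 most alike by correlation, and for each cell type its defining markers and the 3 with the highest mean. No values are given for *Ly6d*, *Bst2*, *Fscn1*, *Ccr2* and *Cd3g* among these. *Pou2af1*, *Siglech*, *Clec10a*, the RFX genes, *Ctss*, *Ifi30* and the genes marked so in the text were named after their values were seen. Promoter windows are from RefSeq (GRCm38.p6), and no window is shown for the other 3 genes. The labels do not tie replicate numbers to experiments, so p-values measure the spread between arrays, and with 2 arrays per group their number limits the precision of every value.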

Additional observations from a re-analysis of the deposited data

How the results depend on the processing

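The count of called genes among the 6 class II genes was 0 in each of the 5 comparisons and in all alternatives except 2. Scaling to T cell identity genes called 1 gene for tumor over LN without IR, *H2-Eb1* (1.47, adjusted p = 0.0881, limma). That scaling moved the median of all genes to 0.344, 0.233, 0.493, 0.324 and -0.131 in the 5 comparisons, and moved every gene by the same amount. Leaving out 1 array gave counts of 0 to 1, the 1 being *Ciita* for IR over no IR in LN (-1.23, adjusted p = 0.0954, limma) without replicate 1 of LN with IR.

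Signs turned only for differences that were not called. For IR over no IR in LN, cyclic loess gave 0.09 for *H2-Eb1* and 0.05 for *H2-Oa*, the T cell scaling gave 0.14 for *H2-Ab1*, 0.40 for *H2-Eb1*, 0.12 for *H2-DMa*, 0.15 for *Cd74*, 0.26 for *H2-DMb2* and 0.37 for *H2-Oa*, and the most variable probe set gave -0.10 for *H2-Aa*. For tumor over LN with IR, the T cell scaling gave 0.14 for *H2-Aa* and 0.10 for *H2-DMa*, and the most variable probe set 0.52 for *H2-Aa*. For the difference of the IR effects, the T cell scaling gave -0.02 for *Ciita* and -0.08 for *H2-Eb2*. The causes were not tested. The fit on the compared groups alone gives no value for the difference of the IR effects, and leaving out probe sets dimmer than the median gives none for *H2-Ob* and *H2-Eb2*.
Leaving out each array in turn turned the sign of these differences, with these ranges: for tumor over LN without IR -1.23 to 0.09 for *H2-DMb2*, -0.24 to 1.02 for *H2-DMa* and -0.30 to 0.85 for *Ciita*. For tumor over LN with IR they were -0.47 to 0.40 for *H2-Aa*, -0.29 to 0.14 for *H2-DMa* and -0.47 to 0.62 for *Cd74*. For IR over no IR in LN they were -0.43 to 0.58 for *H2-Aa*, -0.01 to 0.49 for *H2-Eb2*, -0.53 to 0.35 for *H2-Eb1*, -0.75 to 0.08 for *Cd74*, -0.79 to 1.38 for *H2-Ob*, -0.94 to 0.25 for *H2-Ab1*, -0.70 to 0.25 for *H2-DMb2* and -0.31 to 0.08 for *H2-Oa*. For IR over no IR in tumor the range was -1.09 to 0.07 for *H2-Ab1*. For the difference of the IR effects they were -0.76 to 0.43 for *H2-Ab1*, -0.34 to 0.80 for *Ciita*, -1.23 to 0.03 for *H2-Eb1*, -1.10 to 0.17 for *H2-DMa* and -0.07 to 0.43 for *H2-Eb2*.
The replicate number as a block called 1100, 1334, 159, 15 and 0 of all genes, against 1008, 1237, 191, 18 and 0 without it, and 0 of the 6 class II genes; it called *H2-Ob* lower in tumor without IR (-2.59, adjusted p = 0.00544) and *H2-DMb2* lower in tumor with IR (-1.40, adjusted p = 0.0584). Deviations of same-numbered arrays correlated at 0.431 (both tumor groups), 0.430 (both LN groups), -0.137, 0.013, -0.134 and 0.069, so same-numbered arrays deviated together within each tissue and not across tissues, and 2 pairs do not settle a pairing. By number, IR minus no IR in tumor was below 0 for all 6 genes in both pairs (*Cd74* -1.15 and -1.22). In LN 4 of the 6 had opposite signs in the 2 pairs. Under the block, adjusted p for IR over no IR in tumor was 0.318 to 0.482 (limma). The block is a single term shared by tumor and LN, so these values do not test the pairs within tumor. A pairing within tumor alone was not fitted. With the LN numbers crossed, added after seeing the data, tumor over LN with IR had 1371 calls. Counts over all genes for tumor over LN ran from 540 (without replicate 2 of tumor without IR) to 1841 (T cell scaling) without IR and from 568 (without replicate 2 of tumor with IR) to 2412 (without replicate 1 of LN with IR) with IR; for IR over no IR they ran from 0 (the compared groups alone) to 1789 (without replicate 1 of LN with IR) in LN and from 0 (without replicate 1 of tumor with IR) to 200 (array weights) in tumor; for the difference of the IR effects they ran from 0 to 770 (without replicate 1 of LN with IR).

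Among listed genes, array weights ended the calls with IR of *Lgmn* (2.62, adjusted p = 0.111) and *Cxcl9* (3.06, adjusted p = 0.106) and the LN call of *Cd80* (2.00, adjusted p = 0.178), the compared groups alone ended those with IR of *Lgmn* (adjusted p = 0.104) and *Cd9* (1.85, adjusted p = 0.161), the most variable probe set those of *Irf8* without IR (1.53, adjusted p = 0.155) and *Cd4* with IR (-0.85, adjusted p = 0.156), and the T cell scaling that of *Cd4* (-0.82, adjusted p = 0.0498).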
